A study of Homo sapiens with 12 samples.

Results

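The genes described here are 39 genes of the lysosome and of autophagy out of the 20738 genes in the deposited table. They were chosen by symbol, with no cut on a measured value, although the list was drawn up with earlier results of these data known. By role they are 20 acid hydrolases, 3 hydrolase cofactor and cholesterol export genes, 5 membrane protein genes, 4 subunit genes of the proton pump, 5 autophagy factors and 2 transcriptional regulators. RNA-seq was performed on UM-SCC-47 and UPCI-SCC-090, 2 established cell lines from head and neck squamous carcinomas that carry human papillomavirus. Each line was exposed for 72 h either to 500 nM JQ1, an inhibitor of the BET bromodomain proteins, or to 0.1% DMSO, the control, with 3 libraries in each of the 4 groups. All 12 libraries came from cells grown in serum-containing high-glucose medium. The labels do not tell whether replicates were grown as separate cultures, so the p-values measure only the spread between these libraries, which may be technical.

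The lysosome is an acidic compartment in which hydrolases cut proteins, glycans, lipids and nucleic acids, and the vacuolar ATPase pumps the protons that keep it acidic. In autophagy, membranes carrying LC3 and GABARAP proteins enclose cytoplasm and fuse with the lysosome. The transcription factors TFEB and TFE3 bind the CLEAR element in promoters of such genes and are held in the cytoplasm by the kinase mTORC1, so that their activity is set largely by location.

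Libraries held 20349275 to 30788657 estimated counts in total. Levels are in CPM, counts scaled to a common library total after TMM normalization within each line. Marker levels instead used TMM normalization over all 12 libraries. Changes are log2 fold changes of JQ1 against DMSO ± the standard error, and a gene was called at an edgeR adjusted p under 0.05. All 39 members passed the filter on low counts in both lines. Of 9 markers of squamous epithelium none was without counts in a whole group, with a summed level of 3107 to 3164 CPM with DMSO and 3766 to 4345 CPM with JQ1 in UM-SCC-47, and of 7034 to 8144 and 13770 to 20030 CPM in UPCI-SCC-090, where the basal keratin KRT14 was at only 0.698 to 1.87 CPM. The sum in UPCI-SCC-090 was mostly KRT6A, at a mean of 4556 CPM with DMSO and 11930 CPM with JQ1, while TP63, of the same list, was at 391 and 48.5 CPM in UM-SCC-47 and at 615 and 238 CPM in UPCI-SCC-090, and KRT5 at 607 and 172 CPM in UM-SCC-47. Summed markers of macrophages (9 genes, 1.42 to 10.7 CPM) and osteoclasts (5 genes, 3.99 to 10.9 CPM), cells rich in lysosomes, stayed low in every library, with TYROBP, OCSTAMP and DCSTAMP at 0. Melanocyte markers (6 genes, 1.62 to 10.6 CPM) were low as well, with TYR and SOX10 at 0. Single markers moved, as PMEL, of the melanocyte list, had means of 3.97 CPM with DMSO and 8.91 CPM with JQ1 in UM-SCC-47. Of the macrophage list, CD14 was at 2.72 and 5.88 CPM and CSF1R at 4.26 and 1.06 CPM there, and CD14 at 4.15 and 0.533 CPM in UPCI-SCC-090. Fibroblast markers (7 genes) summed to 12.9 to 15.0 CPM with DMSO and 5.28 to 6.43 CPM with JQ1 in UM-SCC-47, and to 20.3 to 30.7 and 2.80 to 5.62 CPM in UPCI-SCC-090, and their part in the results was not tested. In 4 libraries (UM-SCC-47 JQ1 replicate 3, UPCI-SCC-090 DMSO replicate 2 and UPCI-SCC-090 JQ1 replicates 2 and 3) log2 CPM moved steeply with the GC content of the genes (slopes of −0.53, 0.70, 0.46 and −0.78 per 10 percentage points). Calls of JQ1 against DMSO that change without them are named beside the gene. In bulk RNA, a change in the share of cells that express a gene and a change in RNA per cell cannot be told apart.

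In UM-SCC-47, 24 of the 39 genes rose with JQ1 (61.5%) and 2 fell (5.13%), whereas of all 13440 genes tested 16.1% rose and 25.5% fell. The median log2 fold change of the members was 0.78, against −0.03 over all genes tested. Every JQ1 library lay above every DMSO library for 30 members (76.9%, against 22.4% of all genes) and below for 3 (7.69%, against 32.9%). The rise was spread over the roles. It covered 14 of the 20 acid hydrolases, 2 of the 3 cofactor and cholesterol export genes, 3 of the 5 membrane protein genes, 2 of the 4 proton pump genes and 3 of the 5 autophagy factors. Of the 2 regulators neither rose, and TFEB fell, at low levels of 0.878 to 4.75 CPM. With 2 genes this is not a result about the role. When each library was left out in turn, 16 to 28 members rose, with 16 without DMSO replicate 1, and CTSD no longer fell in 5 of the 6 such fits.

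In UPCI-SCC-090, 12 of the 39 genes rose (30.8%) and 1 fell (2.56%), whereas 7.67% of the 13150 genes tested rose and 20.4% fell. The median log2 fold change of the members was 0.31, against −0.14 over all genes. The JQ1 libraries lay wholly above the DMSO libraries for 15 members (38.5%, against 15.4% of all genes) and wholly below for 3 (7.69%, against 29.1%). The genes that rose were 5 hydrolases, 2 cofactor and cholesterol export genes, 1 membrane protein gene, 2 proton pump genes and 2 autophagy factors. This count rested on few libraries, being 6 without DMSO replicate 2, 5 without DMSO replicate 3 and 4 without JQ1 replicate 1, while 0 members fell without JQ1 replicate 1 and 3 fell without JQ1 replicate 2. Scaling by library size alone gave 7 higher and 2 lower, the 3 libraries without a steep GC trend gave 8 and 0, and the replicate block gave 13 and 2, adding LAMP2 to the genes that rose and ULK1 to those that fell (edgeR adjusted p = 0.045 and 0.029).

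**Figure D1:**
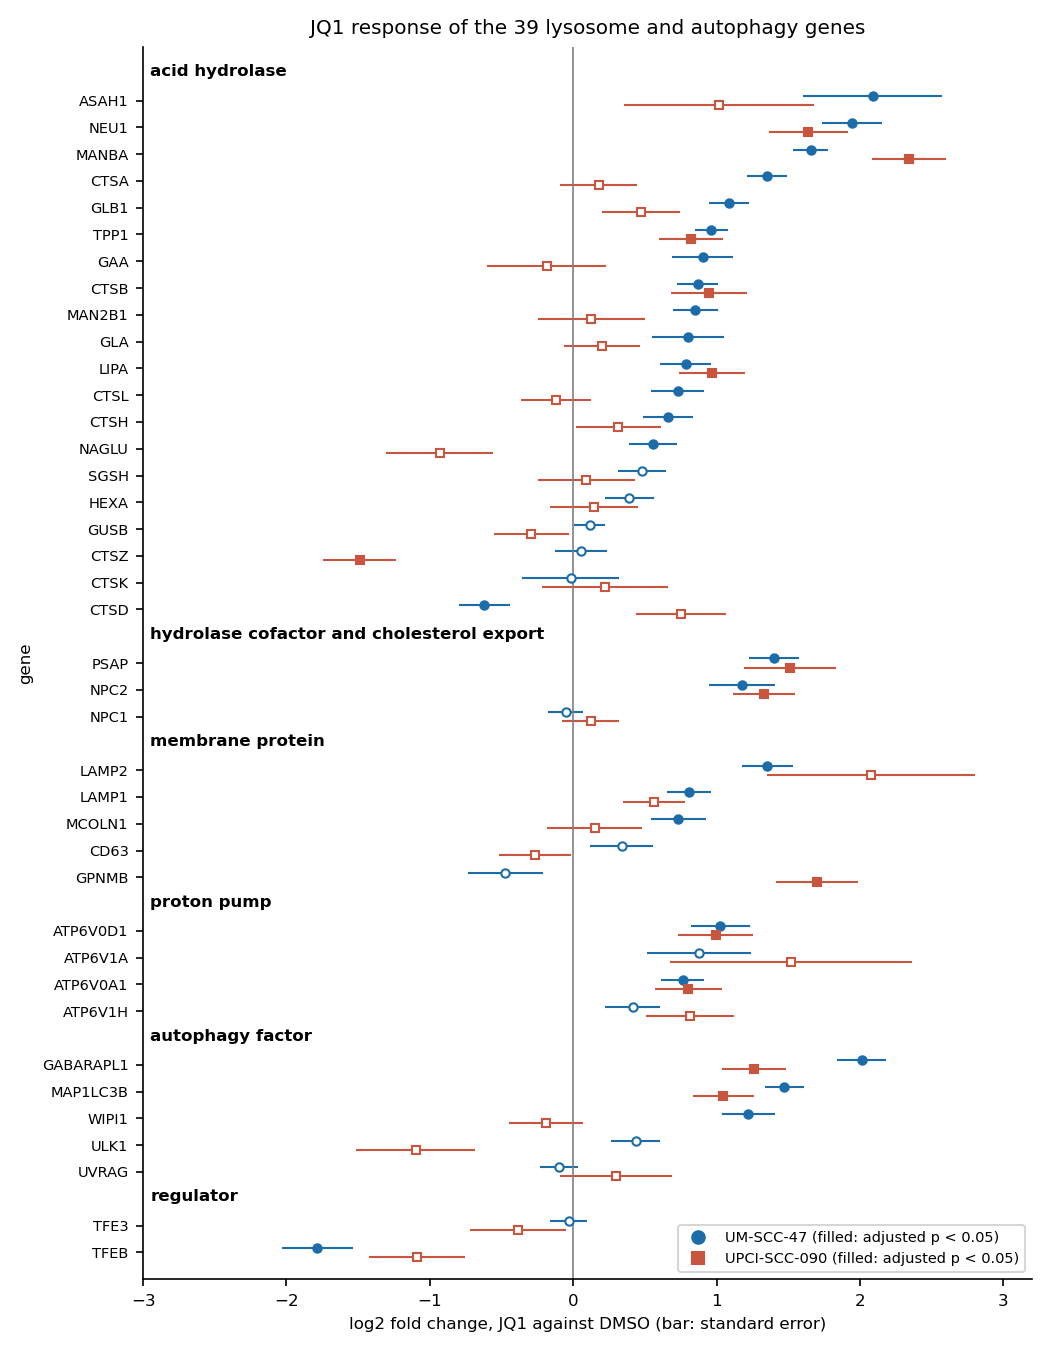
Log2 fold change of JQ1 against DMSO (x axis) for the 39 genes (y axis), grouped by role, in UM-SCC-47 (circles) and UPCI-SCC-090 (squares), with bars for the standard error and filled symbols for genes called at an edgeR adjusted p under 0.05. In UM-SCC-47, 24 genes are filled to the right of 0 and 2 to its left, and in UPCI-SCC-090 12 and 1.

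Among the acid hydrolases NEU1, the lysosomal sialidase (ENSG00000204386, chromosome 6 from 31825436 to 31830682 of GRCh37), rose in both lines. In UM-SCC-47 NEU1 was at 53.0, 56.4 and 48.2 CPM with DMSO and at 198, 257 and 152 CPM with JQ1. UPCI-SCC-090 held NEU1 at 79.4, 134 and 121 CPM with DMSO and at 326, 428 and 289 CPM with JQ1. The groups did not overlap in either line, with changes of 1.95 ± 0.21 and 1.64 ± 0.28 (edgeR adjusted p = 8.6e-04 and 0.0074). MANBA, the beta-mannosidase of the last steps of glycoprotein breakdown (ENSG00000109323, chromosome 4 from 103551927 to 103682151), stood at 23.6, 21.7 and 24.9 CPM in the DMSO libraries of UM-SCC-47 and at 72.2, 72.8 and 76.6 CPM in its JQ1 libraries. In UPCI-SCC-090 the DMSO libraries held 32.9, 28.8 and 26.8 CPM and the JQ1 libraries 164, 111 and 173 CPM. The JQ1 libraries were thus all above the DMSO libraries, and MANBA rose by 3.16-fold in UM-SCC-47 (log2 1.66 ± 0.12, edgeR adjusted p = 2.7e-04) and by 5.06-fold in UPCI-SCC-090 (log2 2.34 ± 0.26, edgeR adjusted p = 0.0037), the largest change of a member in that line. Both genes kept these calls in each fit with a library left out.

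ASAH1, acid ceramidase (ENSG00000104763), had the largest change of a member in UM-SCC-47 and also the largest standard error there. It was at 40.9, 40.8 and 52.3 CPM with DMSO and at 153, 86.1 and 330 CPM with JQ1, so that the JQ1 libraries lay apart from the DMSO libraries but far from each other. The log2 fold change was 2.09 ± 0.48 (edgeR adjusted p = 0.015), and the call was lost without UM-SCC-47 DMSO replicate 1 or 2 (edgeR adjusted p = 0.06 in each fit). In UPCI-SCC-090 ASAH1 was at 65.2, 21.3 and 47.4 CPM with DMSO and at 70.2, 33.1 and 167 CPM with JQ1, so that the groups overlapped (log2 1.02 ± 0.66, edgeR adjusted p = 0.31). In both lines JQ1 replicate 3, a library with a steep GC trend, held the highest level of this AT-rich transcript (39.7% GC).

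Of the other hydrolases, 3 rose in both lines. TPP1, the tripeptidyl peptidase of the lysosome, changed by 0.96 ± 0.12 and 0.82 ± 0.22 (edgeR adjusted p = 0.0012 and 0.035), LIPA, the acid lipase that frees cholesterol from its esters, by 0.78 ± 0.18 and 0.97 ± 0.23 (0.013 and 0.023), and CTSB, an abundant cysteine protease, by 0.87 ± 0.14 and 0.95 ± 0.26 (0.0042 and 0.040). In UPCI-SCC-090 these 3 calls depended on which libraries were used. TPP1 lost its call in each of the 6 fits that left out a library (edgeR adjusted p = 0.056 to 0.14), CTSB in each but the one without JQ1 replicate 3 (0.062 to 0.11), and LIPA without DMSO replicate 2, DMSO replicate 3 or JQ1 replicate 1 (0.077 to 0.12). Without the libraries of steep GC trends TPP1, CTSB and LIPA all missed the threshold there (0.28, 0.076 and 0.064). LIPA also missed the threshold in UM-SCC-47 without any 1 of its DMSO replicates (0.053 to 0.056), and in both lines after GC correction (0.16 and 0.18).

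Another 9 hydrolases rose in UM-SCC-47 and did not pass the main test in UPCI-SCC-090. Of these, MAN2B1 passed in UPCI-SCC-090 after GC correction (edgeR adjusted p = 0.039). With GC correction and the replicate block together, CTSA, GLB1, ASAH1 and MAN2B1 passed there (edgeR adjusted p = 0.041, 0.048, 0.036 and 0.025). CTSA, which stabilizes NEU1 and GLB1 in a complex, rose from 157 ± 15.2 to 400.5 ± 43.8 CPM in UM-SCC-47 (SD, n = 3), a log2 rise of 1.35 ± 0.14 at an edgeR adjusted p = 6.9e-04. Its level in UPCI-SCC-090 was 99.2 ± 19.9 CPM with DMSO and 112 ± 26.9 CPM with JQ1. GLB1, the beta-galactosidase, rose from 86.8 ± 4.36 to 185 ± 26.1 CPM in UM-SCC-47 (edgeR adjusted p = 0.0015). Apart from ASAH1, the others rose there by less, by 0.56 for NAGLU, 0.66 for CTSH, 0.73 for CTSL, 0.80 for GLA, 0.85 for MAN2B1 and 0.90 for GAA on the log2 scale. In UPCI-SCC-090 these genes had edgeR adjusted p-values of 0.11 to 0.85. NAGLU, an enzyme of heparan sulfate breakdown, was at 77.2 ± 23.2 and 40.5 ± 14.5 CPM in UPCI-SCC-090, the lower mean with JQ1 and no call. In UM-SCC-47, CTSL lost its call without any 1 of the DMSO replicates (edgeR adjusted p = 0.068 to 0.077), CTSH and GLA without any 1 of these or JQ1 replicate 1 (0.06 to 0.097 and 0.06 to 0.13), GAA without DMSO replicate 1 or 3 or JQ1 replicate 1 (0.061 to 0.069), and NAGLU without these or JQ1 replicate 2 (0.064 to 0.15). Not called in either line were SGSH, HEXA and GUSB, enzymes of glycan breakdown, and CTSK, the collagen-cutting cathepsin of osteoclasts, at 1.26 to 4.32 CPM over all libraries. Without UM-SCC-47 JQ1 replicate 3, SGSH and HEXA passed the test in UM-SCC-47 (edgeR adjusted p = 0.012 and 0.019), as they did after GC correction (0.0076 and 0.0052). SGSH also passed in UPCI-SCC-090 with GC correction and the replicate block together (edgeR adjusted p = 0.034).

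A pair of proteases went the other way, each in 1 line. CTSD, the main aspartic protease of lysosomes (ENSG00000117984, chromosome 11 from 1773982 to 1785803), was at 1356, 1624 and 1307 CPM with DMSO and at 1049, 999 and 738 CPM with JQ1 in UM-SCC-47. It fell by 0.62 ± 0.18 on the log2 scale (edgeR adjusted p = 0.032), with no overlap. This call was lost in 5 of the 6 fits that left out a library, with edgeR adjusted p of 0.085, 0.11 and 0.07 without DMSO replicates 1, 2 and 3 and of 0.055 and 0.12 without JQ1 replicates 1 and 3. In UPCI-SCC-090 CTSD was at 173, 310 and 265 CPM with DMSO and at 369, 566 and 326 CPM with JQ1, above the DMSO libraries in each case (log2 0.75 ± 0.31, edgeR adjusted p = 0.13). After GC correction this change was 1.40 and was called (edgeR adjusted p = 0.0012), as it was in 1 fit over 12 libraries (0.048). CTSZ, a carboxypeptidase of the cathepsin family (ENSG00000101160, chromosome 20 from 57560741 to 57583293), was at 79.0, 102 and 93.1 CPM with DMSO and at 32.7, 39.5 and 25.5 CPM with JQ1 in UPCI-SCC-090. There it fell by 1.49 ± 0.26 (edgeR adjusted p = 0.0079), a call lost without JQ1 replicate 1 (0.10) and without the libraries of steep GC trends (0.20). In UM-SCC-47 CTSZ was at 146, 148 and 140 CPM with DMSO and at 164, 174 and 112 CPM with JQ1, and the groups overlapped (edgeR adjusted p = 0.84).

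PSAP, whose product is cut into the saposins that present sphingolipids to hydrolases (ENSG00000197746, chromosome 10 from 73576055 to 73611008), was the most abundant member with JQ1. Its DMSO libraries of UM-SCC-47 held 1335, 1445 and 1257 CPM and its JQ1 libraries 3637, 4146 and 2882 CPM. In UPCI-SCC-090 they held 664, 1068 and 991 CPM and 2568, 3483 and 1699 CPM. The groups were apart in both lines, and PSAP rose by 2.64-fold and 2.85-fold (log2 1.40 ± 0.17 and 1.51 ± 0.32, edgeR adjusted p = 0.0014 and 0.016). The call in UPCI-SCC-090 missed the threshold without DMSO replicate 3 (0.054) or JQ1 replicate 1 (0.053). NPC2, the soluble cholesterol carrier of the lysosome lumen (ENSG00000119655), was at 104, 148 and 153 CPM with DMSO and at 319, 370 and 329 CPM with JQ1 in UPCI-SCC-090 (log2 1.33 ± 0.22, edgeR adjusted p = 0.0067). In UM-SCC-47 it rose from 318 ± 8.70 to 720 ± 234 CPM (SD, n = 3; log2 1.18 ± 0.23, edgeR adjusted p = 0.0080). NPC1, the membrane partner that takes cholesterol from NPC2, had log2 fold changes of −0.05 ± 0.12 and 0.12 ± 0.20 and was not called in either line. Summed over all 39 genes, the level was 7079, 7578 and 6855 CPM with DMSO and 12222, 14347 and 10581 CPM with JQ1 in UM-SCC-47. The sum in UPCI-SCC-090 was 3728, 5181 and 4827 CPM with DMSO and 8288, 9551 and 7576 CPM with JQ1, so that the JQ1 libraries lay above in both lines.

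**Figure D2:**
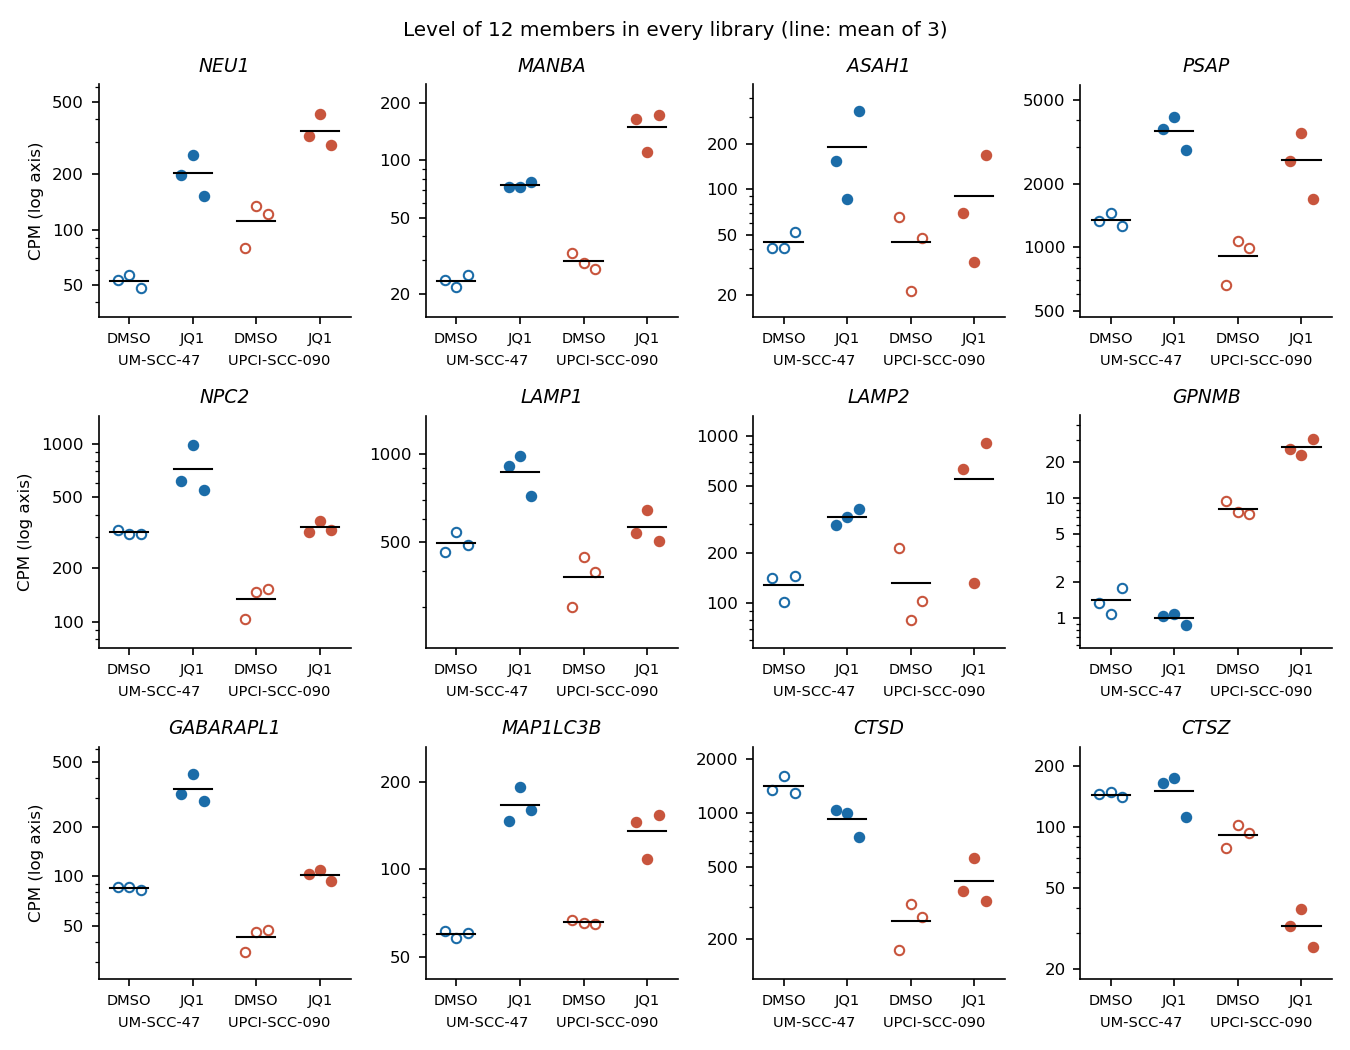
Level of 12 of the genes in each library, in CPM on log axes that differ between panels, with open symbols for DMSO, filled symbols for JQ1 and a line at the mean of 3 libraries. For NEU1, MANBA, PSAP, NPC2, LAMP1, GABARAPL1 and MAP1LC3B the JQ1 libraries lie above the DMSO libraries in both lines, whereas CTSD lies below in UM-SCC-47 and above in UPCI-SCC-090.

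Of the membrane proteins, LAMP1, an abundant glycoprotein of the lysosomal membrane (ENSG00000185896, chromosome 13 from 113951554 to 113977987), was at 464, 542 and 491 CPM with DMSO and at 912, 984 and 720 CPM with JQ1 in UM-SCC-47, where it rose (log2 0.81 ± 0.15, edgeR adjusted p = 0.0071). In UPCI-SCC-090 LAMP1 was at 301, 446 and 398 CPM with DMSO and at 540, 647 and 506 CPM with JQ1. The groups did not overlap there, yet the change of 0.56 ± 0.21 was not called (edgeR adjusted p = 0.099), although it was after GC correction (0.025) and in 1 fit over 12 libraries (0.042). LAMP2, its close relative and a receptor of chaperone-mediated autophagy, was at 141.0, 101.3 and 145.4 CPM with DMSO and at 296, 330 and 365 CPM with JQ1 in UM-SCC-47 (log2 1.35 ± 0.18, edgeR adjusted p = 0.0017), a call lost after GC correction (0.068). In UPCI-SCC-090 the levels of LAMP2 were 213, 79.3 and 104 CPM with DMSO and 635, 132 and 904 CPM with JQ1, with JQ1 replicate 2 inside the range of the DMSO libraries (log2 2.08 ± 0.73, edgeR adjusted p = 0.078, 0.045 with the replicate block, 0.016 after GC correction, 0.011 without JQ1 replicate 2, or 0.00091 without the libraries of steep GC trends). LAMP2 has the lowest GC content of the members (36.0%).

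GPNMB, a glycoprotein of lysosomes and melanosomes (ENSG00000136235, chromosome 7 from 23275586 to 23314727), was called higher with JQ1 in UPCI-SCC-090. There it was at 9.45, 7.62 and 7.33 CPM with DMSO and at 25.4, 22.9 and 31.1 CPM with JQ1, with no overlap (log2 1.70 ± 0.29, edgeR adjusted p = 0.0073). In UM-SCC-47 it was at much lower levels, 1.34, 1.08 and 1.80 CPM with DMSO and 1.05, 1.09 and 0.878 CPM with JQ1 (edgeR adjusted p = 0.19). Summed melanocyte markers were at 1.62 to 1.66 CPM with DMSO and 2.302 to 3.001 CPM with JQ1 in UPCI-SCC-090, with TYR and SOX10 at 0, and their part in this result was not tested. MCOLN1, the calcium channel of the lysosome, rose in UM-SCC-47 from 7.26 ± 0.876 to 12.1 ± 1.68 CPM (SD, n = 3; edgeR adjusted p = 0.023, or 0.078 to 0.11 without DMSO replicate 1 or 3 or JQ1 replicate 1) and was at 21.0 ± 4.41 and 23.3 ± 6.64 CPM in UPCI-SCC-090. CD63, a tetraspanin of late endosomes, was not called in either line, but passed in UM-SCC-47 without JQ1 replicate 3 (edgeR adjusted p = 0.036).

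All 4 proton pump genes had positive log2 fold changes in both lines, and 2 of them rose in each. ATP6V0D1 and ATP6V0A1 belong to the membrane sector of the pump. ATP6V0D1 changed by 1.03 ± 0.20 and 0.99 ± 0.26 (edgeR adjusted p = 0.0083 and 0.034), and ATP6V0A1 by 0.76 ± 0.15 and 0.80 ± 0.23 (0.0077 and 0.044). In UPCI-SCC-090 ATP6V0A1 lost its call in each of the 6 fits that left out a library (edgeR adjusted p = 0.068 to 0.13), and ATP6V0D1 lost it without DMSO replicate 2 or 3 or JQ1 replicate 1 or 2 (0.055 to 0.097). Both missed the threshold without the libraries of steep GC trends (0.22 and 0.091). ATP6V1A and ATP6V1H, of the sector that cleaves ATP, were not called in the main fits, though their JQ1 libraries lay above the DMSO libraries in UM-SCC-47. There ATP6V1A passed with the replicate block or GC correction (edgeR adjusted p = 0.019 in each) and with DESeq2 (DESeq2 adjusted p = 0.02). In UPCI-SCC-090 both genes passed with DESeq2 (DESeq2 adjusted p = 0.032 and 0.041), and ATP6V1H in 1 fit over 12 libraries (edgeR adjusted p = 0.0093). For ATP6V1A the changes were 0.88 ± 0.36 and 1.52 ± 0.84, with 233, 38.2 and 440 CPM in the JQ1 libraries of UPCI-SCC-090, a range that enclosed its DMSO libraries. Without JQ1 replicate 2, the test in UPCI-SCC-090 passed for both ATP6V1A (edgeR adjusted p = 0.028, or 0.043 without all libraries of steep GC trends) and ATP6V1H (0.03).

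Among the autophagy factors, GABARAPL1 and MAP1LC3B rose in both lines. Both encode proteins that are attached to the growing autophagosome membrane. GABARAPL1 (ENSG00000139112, chromosome 12 from 10365057 to 10375727) was at 86.1, 85.9 and 83.1 CPM with DMSO and at 320, 422 and 287 CPM with JQ1 in UM-SCC-47. This was a 4.03-fold rise (log2 2.01 ± 0.17, edgeR adjusted p = 3.8e-04). In UPCI-SCC-090 its levels were 34.8, 45.5 and 47.4 CPM with DMSO and 104, 110 and 93.4 CPM with JQ1 (log2 1.26 ± 0.22, edgeR adjusted p = 0.0085, or 0.064 without JQ1 replicate 1). MAP1LC3B (ENSG00000140941, chromosome 16 from 87417559 to 87438385) was at 61.1, 57.9 and 60.6 CPM with DMSO and at 146, 192 and 160 CPM with JQ1 in UM-SCC-47 (log2 1.47 ± 0.14, edgeR adjusted p = 5.3e-04). Its levels in UPCI-SCC-090 were 66.9, 65.3 and 64.9 CPM with DMSO and 146, 108 and 153 CPM with JQ1 (log2 1.05 ± 0.21, edgeR adjusted p = 0.014). No group overlapped for these genes, yet MAP1LC3B lost the UPCI-SCC-090 call without DMSO replicate 2 or 3 or JQ1 replicate 1 (0.059, 0.066 and 0.081), after GC correction (0.084) and without the libraries of steep GC trends (0.056). Near-identical copies of MAP1LC3B, GABARAPL1 and GUSB exist elsewhere in the genome, and Salmon divides shared reads among copies, so these counts are uncertain to that extent.

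The other 3 autophagy factors differed from these. WIPI1, which binds the lipid marking the site of autophagosome formation, rose from 11.8 ± 0.927 to 27.4 ± 4.72 CPM in UM-SCC-47 (SD, n = 3; log2 1.22 ± 0.19, edgeR adjusted p = 0.0030) and was at 30.1 ± 3.63 and 26.4 ± 3.91 CPM, with no call, in UPCI-SCC-090 (edgeR adjusted p = 0.65). ULK1, the kinase that starts autophagy, had 15.8, 16.6 and 15.5 CPM with DMSO and 23.9, 17.8 and 23.2 CPM with JQ1 in UM-SCC-47, and 28.2, 41.3 and 27.1 CPM against 14.3, 22.1 and 8.73 CPM in UPCI-SCC-090. The groups were apart in both lines and in opposite directions, but neither change was called (edgeR adjusted p = 0.086 and 0.097, the latter 0.029 with the replicate block). ULK1 passed in UM-SCC-47 without JQ1 replicate 2 or 3 (edgeR adjusted p = 0.017 and 0.046) and in UPCI-SCC-090 without JQ1 replicate 2 (0.041). The log2 change of −1.10 in the latter line was −0.52 after GC correction (0.11), −0.67 without the libraries of steep GC trends (0.44) and −0.63 without JQ1 replicate 3 (0.32). UVRAG, a subunit of a lipid kinase complex, was not called.

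Neither regulator rose. TFEB (ENSG00000112561, chromosome 6 from 41651716 to 41703997) was at 3.54, 4.75 and 3.95 CPM with DMSO and at 1.28, 1.37 and 0.878 CPM with JQ1 in UM-SCC-47, and so fell to 28.9% of the control level (log2 −1.79 ± 0.25, edgeR adjusted p = 0.0022). In UPCI-SCC-090 it was at 3.39, 3.94 and 4.58 CPM with DMSO and at 1.80, 2.43 and 1.36 CPM with JQ1. These groups did not overlap either, and the change of −1.09 ± 0.33 missed the threshold (edgeR adjusted p = 0.052). It was −0.45 after GC correction (0.29), −0.72 without JQ1 replicate 3 (0.27) and −1.27 without JQ1 replicate 2 (0.043), and over all alternatives its adjusted p ran from 0.042 to 0.37. TFE3 (ENSG00000068323, chromosome X from 48886237 to 48900936) was at 31.9, 33.9 and 32.2 CPM with DMSO and at 34.5, 30.7 and 30.6 CPM with JQ1 in UM-SCC-47. In UPCI-SCC-090 it was at 16.3, 26.1 and 20.1 CPM with DMSO and at 13.4, 21.2 and 13.2 CPM with JQ1. TFE3 overlapped between the groups in both lines and was not called (log2 −0.03 ± 0.13 and −0.39 ± 0.34, edgeR adjusted p = 0.86 and 0.46). The mRNA level does not show where these proteins were in the cell or how active they were.

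Between the lines, 11 members rose in both, namely ATP6V0A1, ATP6V0D1, CTSB, GABARAPL1, LIPA, MANBA, MAP1LC3B, NEU1, NPC2, PSAP and TPP1. Another 13 rose in UM-SCC-47 and were not called in UPCI-SCC-090, 1 (GPNMB) was called higher only in UPCI-SCC-090, and 11 were not called in either. The sign of the log2 fold change was the same in both lines for 26 of the 39. It was positive for 32 in UM-SCC-47 and for 29 in UPCI-SCC-090, so many shared signs would arise even between unrelated lines. The share of all genes that rose in both lines or shared a sign is not given. These counts are therefore not read as agreement between the lines. The test of the difference itself, the interaction of line and treatment, called 1 member with a higher response in UPCI-SCC-090 (2.56%, against 2.93% of the 14396 genes tested) and 1 with a lower response (2.56%, against 3.63%), shares close to those of all genes. GPNMB had the higher response, with a difference of 2.27 ± 0.37 (edgeR adjusted p = 0.0044), and CTSZ the lower, with −1.42 ± 0.38 (edgeR adjusted p = 0.045). For the 13 genes called in UM-SCC-47 alone the difference did not pass, with an edgeR adjusted p of 0.063 for WIPI1, 0.13 for CTSA and 0.14 for NAGLU. Without UPCI-SCC-090 JQ1 replicate 2 these 3 passed (0.021, 0.023 and 0.029).

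The call of GPNMB held in each fit with a library left out, and that of CTSZ was lost in 8 of the 12 such fits, among them those without UM-SCC-47 DMSO replicates 1, 2 and 3 (edgeR adjusted p = 0.12, 0.10 and 0.12), UM-SCC-47 JQ1 replicates 1 and 2 (0.13 and 0.089), UPCI-SCC-090 DMSO replicate 2 (0.10) and UPCI-SCC-090 JQ1 replicates 1 and 3 (0.10 and 0.061). The count of differing members also depended on scaling and on GC correction. The share of all genes called in those fits is not given, so the counts that follow are not a result about the members. Among the fits with a library left out, 4, 5 and 6 members had the lower response without UPCI-SCC-090 DMSO replicate 1, UM-SCC-47 JQ1 replicate 3 and UPCI-SCC-090 JQ1 replicate 2. The counts were 1 higher and 0 lower with RLE or upper-quartile factors, 2 and 2 with library size alone, and 3 and 8 after GC correction, when CTSD, GPNMB and TFEB had the higher response in UPCI-SCC-090 and CTSA, CTSL, CTSZ, NAGLU, ASAH1, GABARAPL1, ULK1 and WIPI1 the lower.

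The response of the members ran along the GC content of their transcripts, which ranged from 36.0% to 64.8% (median 51.4%, against 49.1% of genes tested). Spearman's rho between the log2 fold change and GC content over the 39 members was −0.31 in UM-SCC-47 and −0.64 in UPCI-SCC-090, as a description across genes that share the same 6 libraries. Over all genes it was −0.25 and −0.31. After correction of each library for GC content, rho was −0.12 and −0.32 over the members and −0.03 and −0.007 over all genes. The number of members that rose was then 26 in UM-SCC-47 and 14 in UPCI-SCC-090. How many of all genes were called after this correction is not given, so these counts are not a result about the members. Relative to the mean of the DMSO libraries the median member was at 0.53 to 0.89 on the log2 scale in the JQ1 libraries of UM-SCC-47 and at −0.05 to 0.06 in its DMSO libraries. In UPCI-SCC-090 it was at 0.35 to 0.53 and at −0.32 to 0.23. The JQ1 libraries were thus above the DMSO libraries by this measure in both lines, including those without a steep GC trend. The part of GC content in the difference between the lines was not tested beyond these values.

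**Figure D3:**
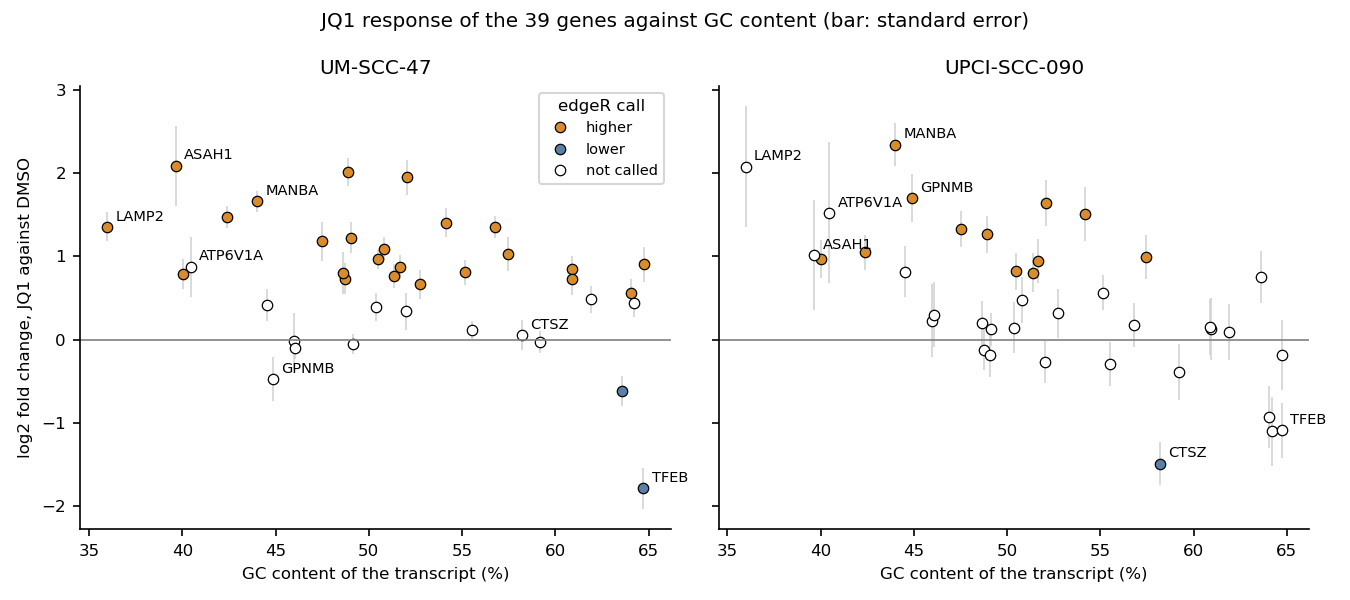
Log2 fold change of JQ1 against DMSO (y axis, bars for the standard error) against the GC content of the transcript in percent (x axis) for the 39 genes, colored by edgeR call, in UM-SCC-47 (left) and UPCI-SCC-090 (right). LAMP2, ASAH1 and ATP6V1A, at 36.0% to 40.5% GC, have the longest error bars in UPCI-SCC-090, and the only gene called lower there is CTSZ.

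Promoters are shown for members that carry the letters of the CLEAR element, the site known to be bound by TFEB and TFE3. RefSeq windows of GRCh38.p14, from 250 bases before to 50 bases after the first start listed for a gene, were found for 27 of the 39 members. The palindrome TCACGTGA, which reads the same on both strands and contains the E-box CACGTG, occurred in 5 of the 27 windows (18.5%), against 283 of 27305 windows over all genes (1.04%). The 5 genes were ATP6V0D1, CTSA, GAA, LAMP1 and MCOLN1. The shorter CACGTG occurred in 8 of the 27 (29.6%, against 7.43%), the others being CD63, CTSD and NEU1. The related M-box TCATGTGA, searched on both strands, occurred in CD63, GPNMB and TPP1 (11.1%, against 1.01%). The windows over all genes were not matched to the members for expression or base content. The CLEAR element was already known from promoters of such genes, so these shares are a description and not a test. The 250 bases before the start follow for the 5 genes with the palindrome in capitals, on the strand of the gene, at chr16:67481158-67481407 (minus strand), chr20:45891085-45891334, chr17:80101331-80101580, chr13:113296989-113297238 and chr19:7522374-7522623 (plus strand), and for GPNMB at chr7:23246525-23246774 (plus strand) with its M-box, read from the other strand as TCACATGA, in capitals.
ATP6V0D1: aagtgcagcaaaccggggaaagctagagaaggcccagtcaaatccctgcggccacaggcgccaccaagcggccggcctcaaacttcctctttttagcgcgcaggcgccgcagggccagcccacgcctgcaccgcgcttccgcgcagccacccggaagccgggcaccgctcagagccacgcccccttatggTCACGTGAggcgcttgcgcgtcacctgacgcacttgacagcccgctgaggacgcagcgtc
CTSA: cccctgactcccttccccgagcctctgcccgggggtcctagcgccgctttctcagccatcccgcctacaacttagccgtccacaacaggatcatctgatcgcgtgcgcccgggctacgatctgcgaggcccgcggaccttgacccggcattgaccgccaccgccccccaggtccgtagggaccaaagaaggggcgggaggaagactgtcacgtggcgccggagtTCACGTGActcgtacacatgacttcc
GAA: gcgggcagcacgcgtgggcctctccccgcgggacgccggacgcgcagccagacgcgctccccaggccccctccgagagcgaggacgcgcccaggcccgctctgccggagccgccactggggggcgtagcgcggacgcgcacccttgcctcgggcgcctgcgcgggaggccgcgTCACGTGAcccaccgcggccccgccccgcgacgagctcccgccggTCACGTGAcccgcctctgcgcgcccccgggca
LAMP1: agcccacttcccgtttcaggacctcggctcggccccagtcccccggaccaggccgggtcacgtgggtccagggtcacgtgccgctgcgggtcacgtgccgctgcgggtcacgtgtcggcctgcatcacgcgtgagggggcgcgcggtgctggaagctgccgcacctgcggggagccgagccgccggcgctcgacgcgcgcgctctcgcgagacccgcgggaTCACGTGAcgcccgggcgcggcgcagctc
MCOLN1: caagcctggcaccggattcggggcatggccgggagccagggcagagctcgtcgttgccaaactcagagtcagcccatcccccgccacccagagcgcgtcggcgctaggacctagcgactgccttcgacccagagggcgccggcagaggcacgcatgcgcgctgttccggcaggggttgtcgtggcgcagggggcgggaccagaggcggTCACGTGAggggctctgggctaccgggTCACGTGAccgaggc
GPNMB: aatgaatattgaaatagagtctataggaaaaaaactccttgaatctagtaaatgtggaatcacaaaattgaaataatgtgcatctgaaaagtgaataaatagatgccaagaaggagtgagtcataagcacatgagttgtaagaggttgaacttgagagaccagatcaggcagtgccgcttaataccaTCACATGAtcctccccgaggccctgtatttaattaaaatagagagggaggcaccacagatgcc

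GAA and MCOLN1 hold 2 palindromes each in this stretch, and in LAMP1 the palindrome starts 29 bases before the start site, with another that begins 2 bases before it. All 5 genes with the palindrome rose in UM-SCC-47, where 24 of the 39 members rose (61.5%). The log2 fold changes of the 5 were 1.03 (ATP6V0D1), 1.35 (CTSA), 0.90 (GAA), 0.81 (LAMP1) and 0.73 (MCOLN1). In UPCI-SCC-090 their changes were 0.99, 0.18, −0.19, 0.56 and 0.15 in the same order. ATP6V0D1 alone of the 5 was called there, where 12 of the 39 members rose (30.8%). A relation between the motif and the response was not tested. CTSD, with the shorter motif, fell in UM-SCC-47, and NEU1, also with the shorter motif, rose in both lines. A motif match describes letters in this window and not binding, and the windows of ASAH1, ATP6V1A, ATP6V1H, CTSB, CTSK, HEXA, LAMP2, MANBA, NAGLU, PSAP, SGSH and UVRAG were not analysed here.

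In the absence of JQ1 the lines held these genes at different levels, given here as CPM on a scale common to all 12 libraries (mean ± SD, n = 3). With DMSO 9 members were higher in UPCI-SCC-090 (23.1%, against 23.3% of all genes) and 7 were lower (17.9%, against 19.9%), which is near the share over all genes, and the line cannot be told apart from any difference in its culture or sequencing. CTSH, an aminopeptidase of the cathepsin family, was at 707 ± 45.7 CPM in UM-SCC-47 and 29.6 ± 8.54 CPM in UPCI-SCC-090, 23.9-fold lower (log2 −4.58 ± 0.31, edgeR adjusted p = 4.8e-07). GAA, the enzyme that degrades glycogen in lysosomes, went the other way, at 9.81 ± 2.09 and 161 ± 49.1 CPM (log2 4.04 ± 0.45, edgeR adjusted p = 2.2e-05). CTSD was at 1391 ± 168 and 248 ± 79.5 CPM, LIPA at 398 ± 16.9 and 85.2 ± 9.01 CPM, and GPNMB at 1.37 ± 0.35 and 7.98 ± 0.759 CPM (edgeR adjusted p = 8.6e-05, 5.0e-06 and 1.2e-05). Also higher in UPCI-SCC-090 were WIPI1, ATP6V0A1, MCOLN1, NAGLU, NEU1, ULK1 and GUSB, and also lower were ATP6V1H, CTSL, NPC2 and GABARAPL1. Of these calls, that of ULK1 (edgeR adjusted p = 0.045) was lost (0.051 to 0.16) in 10 of the 12 fits that left out a library, all but those without UPCI-SCC-090 JQ1 replicate 2 or 3, and with RLE or upper-quartile factors. GUSB lost its call without UM-SCC-47 DMSO replicate 3 or UPCI-SCC-090 DMSO replicate 2 or 3 (0.058 to 0.061), and NEU1 without UPCI-SCC-090 DMSO replicate 3 (0.056). The counts rose to 14 and 13 after GC correction. Without UM-SCC-47 JQ1 replicate 3, 12 were lower, among them CTSA, CTSZ, PSAP, LAMP1 and TFE3. The share of all genes called in these fits is not given, so these counts are not a result about the members.

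Per kb of the canonical transcript, on the same common scale, PSAP ranked first in 3 of the 4 groups, at a mean level of 1272 CPM per kb with JQ1 in UM-SCC-47 and of 1031 and 328 CPM per kb with JQ1 and DMSO in UPCI-SCC-090. The libraries of PSAP overlapped those of the next gene with JQ1 in UM-SCC-47 (NPC2) and with DMSO in UPCI-SCC-090 (CD63), so that its first place was clear of the spread only with JQ1 in UPCI-SCC-090. CTSD ranked first with DMSO in UM-SCC-47 (677 CPM per kb), ahead of PSAP (477), and the lowest CTSD library was above the highest PSAP library. NPC2, CD63 and LAMP1 were among the upper 6 of the 39 genes in every group. The lowest levels were those of TFEB, CTSK and GPNMB, at 0.373 to 2.02 CPM per kb except for GPNMB in UPCI-SCC-090 (3.01 with DMSO and 10.5 with JQ1). Many neighbors in this order could not be ranked, since their libraries overlapped for 20 of the 38 neighboring pairs with DMSO and 30 with JQ1 in UM-SCC-47, and for 34 in both groups of UPCI-SCC-090.

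**Figure D4:**
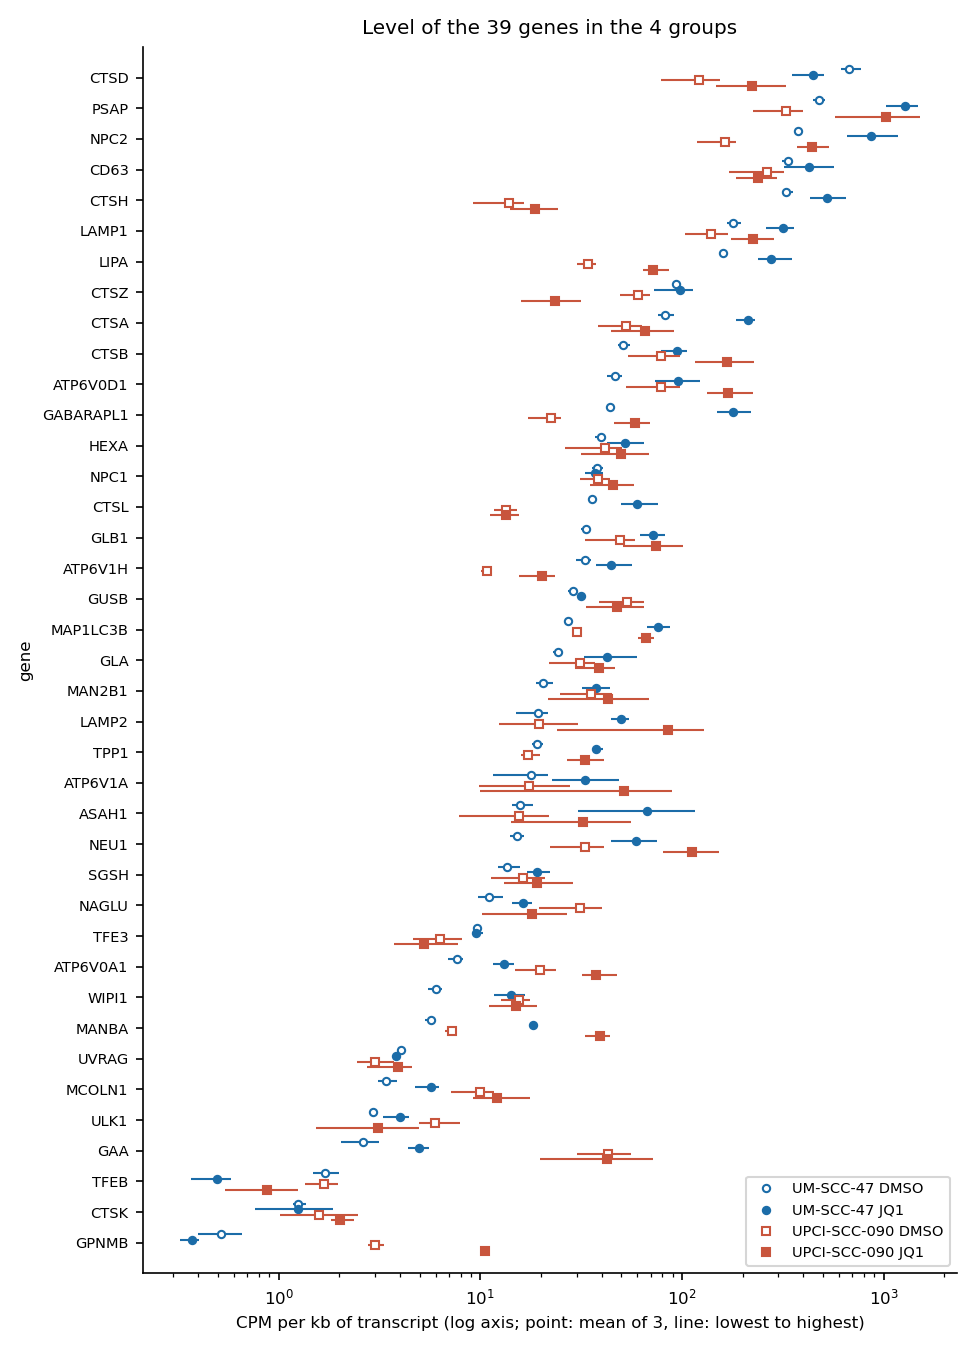
Level of the 39 genes (y axis, ordered by UM-SCC-47 with DMSO) in CPM per kb of transcript (log x axis) in the 4 groups, with points for the mean of 3 libraries and lines from the lowest to the highest library. With and without JQ1, CTSH and LIPA lie lower and GAA and GPNMB higher in UPCI-SCC-090.

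Other genes of the same pathways, 116 in 7 lists, were counted in the same fits. In UM-SCC-47, 45 of 114 tested rose and 8 fell, beside 16.1% and 25.5% of all genes tested, and in UPCI-SCC-090 20 of 114 rose and 6 fell, beside 7.67% and 20.4%. Other hydrolases and cofactors rose in 17 of 26 cases and fell in 2 in UM-SCC-47, and rose in 7 of 25 in UPCI-SCC-090, where none fell at this threshold. GM2A, the activator that lifts ganglioside GM2 out of the membrane, rose from 93.1 ± 6.91 to 325 ± 69.3 CPM in UM-SCC-47 and, in UPCI-SCC-090, from 74.9 ± 15.0 to 258 ± 35.0 CPM (SD, n = 3; edgeR adjusted p = 6.5e-04 and 0.0044). ARSA and LGMN, a sulfatase and the asparagine-specific protease legumain, rose in UM-SCC-47 by 1.63 ± 0.18 and 1.60 ± 0.17 on the log2 scale, and LGMN rose in UPCI-SCC-090 by 1.40 ± 0.24. IDS, another sulfatase, and SCPEP1, a carboxypeptidase, rose in both lines, by 0.74 ± 0.13 and 1.60 ± 0.17 in UM-SCC-47 and by 1.69 ± 0.32 and 1.72 ± 0.20 in UPCI-SCC-090. CTSS, a cathepsin best known from antigen-presenting cells, fell in UM-SCC-47 from 37.5 ± 4.58 to 2.49 ± 0.225 CPM (edgeR adjusted p = 1.3e-04), as did GALC, the galactosylceramidase, from 30.0 ± 6.64 to 6.48 ± 1.59 CPM (edgeR adjusted p = 0.0012). CTSS was too low to be tested in UPCI-SCC-090.

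For the lists that follow, all genes tested gave 16.1% higher and 25.5% lower in UM-SCC-47 and 7.67% and 20.4% in UPCI-SCC-090. Other proton pump subunits rose in 9 of 12 cases in UM-SCC-47 and 3 of 12 in UPCI-SCC-090, with no fall at this threshold. ATP6V0E1 and ATP6V1F rose in both lines, by 1.28 ± 0.22 and 1.32 ± 0.22 in UM-SCC-47 and in UPCI-SCC-090 by 1.15 ± 0.17 and 1.24 ± 0.30 (edgeR adjusted p = 0.0043 for both and 0.0052 and 0.023). ATP6V1E1 rose in both lines as well, by 0.69 ± 0.16 and 1.73 ± 0.35, and ATP6AP2 rose in UM-SCC-47 by 1.47 ± 0.24. Other lysosomal membrane proteins rose in 4 of 10 cases and fell in 1 in UM-SCC-47, and rose in 2 of 10 in UPCI-SCC-090. SLC17A5, the sialic acid exporter that takes up the product of NEU1, rose by 1.58 ± 0.16 in UM-SCC-47 (edgeR adjusted p = 7.1e-04), with SCARB2 and the cystine exporter CTNS, while CLN3 fell by 0.93 ± 0.21. In UPCI-SCC-090 LAPTM4A and LAPTM4B rose by 1.37 ± 0.24 and 1.25 ± 0.16, and LAPTM4A also rose in UM-SCC-47, by 0.76 ± 0.20. Mannose 6-phosphate sorting directs hydrolases to the lysosome. Of its 7 genes, 2 rose (GNPTG and SORT1) and 1 fell in UM-SCC-47, and 1 fell in UPCI-SCC-090. These few calls are not a result about the list. The gene that fell was NAGPA in both, the enzyme that uncovers the mannose 6-phosphate tag, at 11.9 ± 2.13 and 4.42 ± 0.584 CPM in UM-SCC-47 (edgeR adjusted p = 0.0027) and at 10.9 ± 2.60 and 2.01 ± 0.637 CPM in UPCI-SCC-090 (0.0065).

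Other autophagy factors rose in 8 of 31 cases and fell in 1 in UM-SCC-47, beside 16.1% and 25.5% of all genes tested. In UPCI-SCC-090 they rose in 4 of 32 and fell in 2, beside 7.67% and 20.4%. GABARAPL2 rose in both lines as GABARAPL1 did, by 0.96 ± 0.20 and 1.99 ± 0.19 (edgeR adjusted p = 0.010 and 0.0037). BECN1, of the lipid kinase complex that starts the autophagosome, rose by 0.66 ± 0.15 in UM-SCC-47 and by 1.79 ± 0.20 in UPCI-SCC-090. ATG7, which activates LC3 for attachment, rose in UPCI-SCC-090 by 0.95 ± 0.26, and VMP1 and ATG4A rose in UM-SCC-47. ATG14, the partner of BECN1 at the site of formation, fell in both lines, from 34.0 ± 2.57 to 12.1 ± 4.56 CPM and from 33.8 ± 13.4 to 4.71 ± 0.46 CPM (edgeR adjusted p = 0.0076 and 0.0045), and ATG2A fell in UPCI-SCC-090. Of the 5 autophagy receptors, which carry cargo to LC3, SQSTM1 rose in both lines, from 665 ± 65.8 to 2778 ± 601 CPM in UM-SCC-47 and, in UPCI-SCC-090, from 569 ± 158 to 1165 ± 193 CPM (edgeR adjusted p = 5.8e-04 and 0.029), and NBR1 rose in UM-SCC-47.

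Of the MITF family and of mTORC1 and its partners at the lysosome, 3 of 23 genes rose and 3 fell in each line, RPTOR and TSC2 among the latter, where all genes tested gave 16.1% and 25.5% in UM-SCC-47 and 7.67% and 20.4% in UPCI-SCC-090. These few calls are not a result about the list. RRAGA, a GTPase that brings mTORC1 to the lysosome, rose in both lines by 0.73 ± 0.20 and 0.92 ± 0.20 (edgeR adjusted p = 0.028 and 0.016), as did the mTOR inhibitor DEPTOR, from 0.662 to 1.28 CPM in UM-SCC-47 and, in UPCI-SCC-090, from 18.9 to 46.9 CPM. RRAGC rose in UM-SCC-47 and LAMTOR5 in UPCI-SCC-090. RPTOR, the scaffold that defines mTORC1, fell from 34.2 ± 3.65 to 12.2 ± 2.23 CPM and from 34.3 ± 7.75 to 8.04 ± 3.48 CPM (edgeR adjusted p = 0.0017 and 0.012). TSC2, which restrains mTORC1, fell too, and its changes were −0.85 ± 0.15 and −1.55 ± 0.41 on the log2 scale (by edgeR adjusted p = 0.0047 and 0.032). These are mRNA levels, and the activity of mTORC1 was not measured in these libraries.

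**Figure D5:**
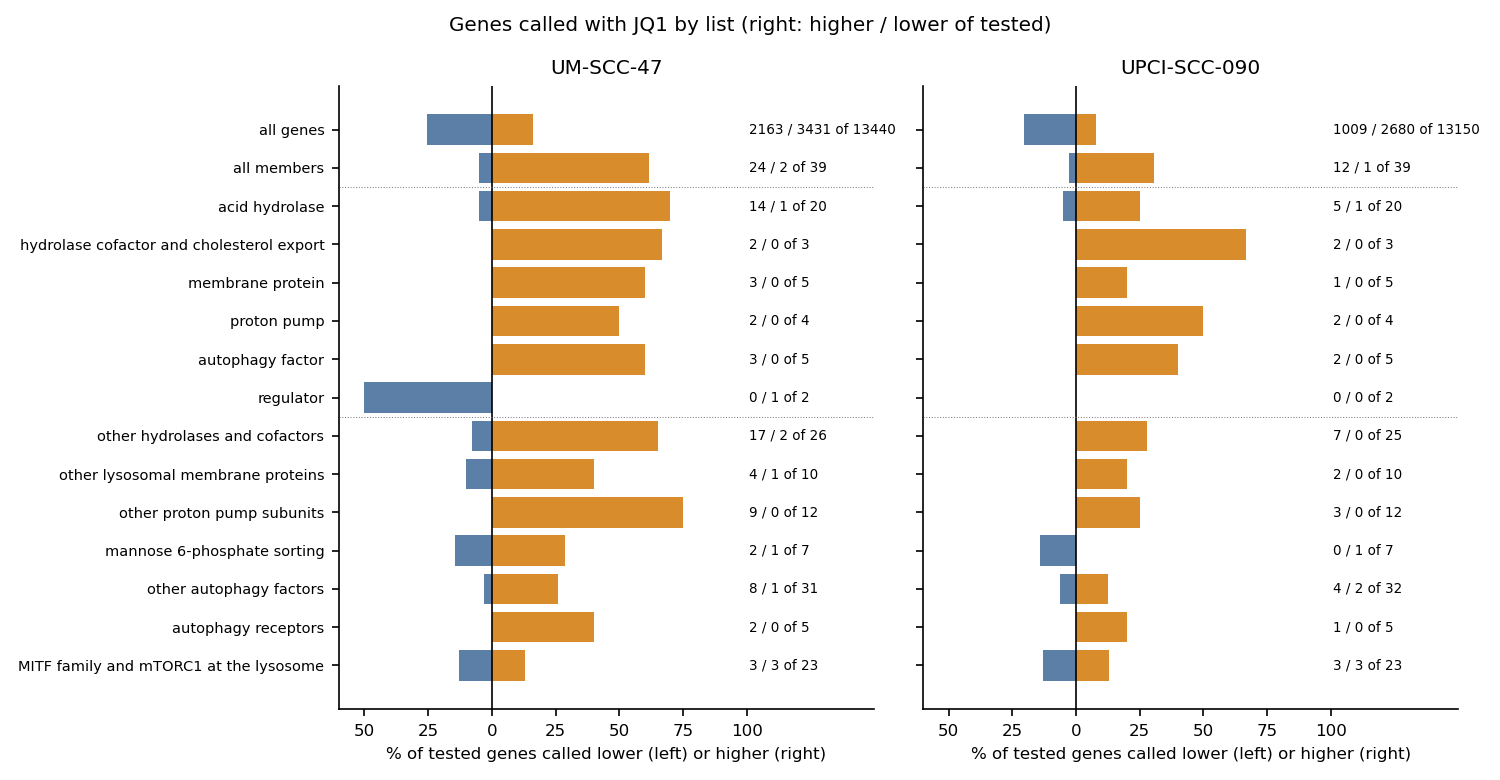
Percent of tested genes called higher (right of 0) or lower (left of 0) with JQ1 in each list, in UM-SCC-47 (left panel) and UPCI-SCC-090 (right panel), with the counts printed beside the bars and dotted lines separating all genes and members, the roles of the members, and the wider lists. All genes tested give 16.1% higher and 25.5% lower in UM-SCC-47 and 7.67% and 20.4% in UPCI-SCC-090, whereas the members give 61.5% and 5.13%, and 30.8% and 2.56%.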

How the data were processed

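The RNA was sequenced by the authors from total RNA libraries with a stranded kit that removes ribosomal RNA. The deposited table holds estimated counts per gene, which the authors made with Salmon (version 0.8.2 in the submitters' processing notes, which also name DESeq2 1.28.0). The genome build or transcript index behind the RNA counts was not stated in the sources read. Every column of the table belonged to 1 of the 12 libraries and 0 columns were left over.

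The counts were rounded and then tested with edgeR 4.0.16 under R 4.3.3 (filterByExpr with a minimum count of 10 and a minimum total count of 15, TMM, quasi-likelihood F test, Benjamini-Hochberg adjustment over all genes tested), JQ1 against DMSO in each line alone, and for differences between lines in 1 fit over 12 libraries and 14396 genes. Standard errors were derived from F, as the size of the log2 fold change over its square root. DESeq2 1.42.0, the tool of the study, was an alternative, with other scaling factors, no filter, a replicate block, GC correction and libraries left out in turn. The scripts were tested on simulated data. Symbols, coordinates, length and GC content came from GENCODE 44 lifted to GRCh37, in which 20015 of the 20738 gene IDs were found and 723 were not, while the study names GENCODE 19 for gene annotation.

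The members and lists were chosen with earlier results of these data known, so their counts are not independent of those results. Values of every library are given for up to 7 members per line and direction with the largest called change and at least 5 CPM in the higher group, for members called in the interaction, and for TFEB, TFE3 and LAMP1, and up to 3 genes per wider list, line and direction were named, apart from 1 result that is not reported here. Other members were given values as their role required. Replicates differed by more than sampling noise. In UPCI-SCC-090 same-numbered DMSO and JQ1 libraries correlated at 0.102, 0.823 and 0.244, but DMSO replicate 1 and JQ1 replicate 3 correlated at 0.830. These values do not establish the replicate numbers as pairs. The labels do not say that a number marks a shared culture or day. The main tests used no pairing, and the replicate block was run only as an alternative.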

Additional observations from a re-analysis of the deposited data

Results flagged for a closer look

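The response to JQ1 was singled out in 4 members because it was not alike in the lines, by a test or by direction. The difference, UPCI-SCC-090 minus UM-SCC-47 on the log2 scale, passed the interaction test for GPNMB (2.27, edgeR adjusted p = 0.0044) and for CTSZ (−1.42, edgeR adjusted p = 0.045). CTSD (1.49) lay below its DMSO libraries in every JQ1 library of UM-SCC-47 and above them in every JQ1 library of UPCI-SCC-090, and ULK1 (−1.39) did the reverse. For CTSD and ULK1 the interaction test did not pass (edgeR adjusted p = 0.075 and 0.16), but it passed for both after GC correction (1.7e-05 and 0.036), and for CTSD also with the replicate block (0.039), with library size only (0.044) and without UPCI-SCC-090 JQ1 replicate 3 (0.04). For ULK1 it also passed without UPCI-SCC-090 JQ1 replicate 2 (0.022). With groups of 3 libraries, single libraries were not screened as outliers.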

How the results depend on the processing

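The members that rose in UM-SCC-47 numbered 16 to 28 with a library left out and 17 to 28 in the other fits, against 24. Those that fell numbered 1 to 2 with a library left out, and 1 with RLE factors, upper-quartile factors, DESeq2, 1 fit over 12 libraries or the steep GC libraries left out, since CTSD lost its call. In UPCI-SCC-090 the count that rose, 12, was 4 to 11 with a library left out, 7 with library size only and 19 with GC correction and the replicate block together. The count that fell, 1, was 0 to 3 with a library left out, 2 with library size only, the replicate block or 1 fit over 12 libraries, and 0 without the steep GC libraries, which left 2 DMSO libraries and 1 JQ1 library, the latter assumed to vary like the rest. Responses higher in UPCI-SCC-090 numbered 1, or 2 with library size only or the replicate block, 3 with GC correction with or without the block, and 1 to 2 with a library left out. Lower responses numbered 1, or 0 with RLE factors, upper-quartile factors, no filter or DESeq2, 2 with library size only, 8 with GC correction with or without the block, and 0 to 6 with a library left out. With DMSO, 9 members were higher in UPCI-SCC-090 (14 with GC correction with or without the block, 6 to 12 with a library left out) and 7 were lower (13 with GC correction with or without the block, 12 without the steep GC libraries, 7 to 12 with a library left out). Except where a count rests on fewer libraries, the cause was not tested. The share of all genes called under each alternative is not given. No log2 fold change of a called member changed sign under any alternative run.

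Scaling moved the median of all genes, from −0.03 in UM-SCC-47 and −0.14 in UPCI-SCC-090 with TMM to 0.12 and 0.14 with RLE factors and to −0.28 and −0.38 with library size only. The median of the members was above that of all genes under each of these, at 0.95 and 0.61 with RLE factors and 0.52 and 0.11 with library size only. In UM-SCC-47 the same-numbered libraries correlated at −0.215, 0.215 and 0.509. These values neither establish nor exclude the numbers as pairs there. The replicate block gave 25 members higher and 2 lower in UM-SCC-47. The block changed the counts in UPCI-SCC-090 to 13 and 2 through LAMP2 and ULK1 and changed no other call there. With 3 libraries per group, small changes in UPCI-SCC-090 were not detectable at this spread.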

Other observations

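Summed over the members of a role, the level with JQ1 as a percent of that with DMSO was 298% for the autophagy factors, 241% for the cofactor and cholesterol export genes, 174% for the proton pump, 168% for the membrane proteins, 135% for the acid hydrolases and 90.1% for the regulators in UM-SCC-47. In UPCI-SCC-090 it was 160%, 254.5%, 214%, 171%, 147% and 71.8% in the same order. These sums are weighted toward abundant genes, such as PSAP and CTSD, and are descriptions of 3 libraries per group. In UPCI-SCC-090 the membrane protein sum includes LAMP2, with means of 132 CPM with DMSO and 557 CPM with JQ1. The proton pump sum there includes ATP6V1A, with means of 82.6 and 237 CPM. Neither was called, and their JQ1 libraries were spread widely, at 635, 132 and 904 CPM and at 233, 38.2 and 440 CPM.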
